A study of Mus musculus with 2 samples.

Results

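The genes described are 8 that encode enzymes of heme synthesis, Alas1, Alas2, Alad, Uros, Urod, Cpox, Ppox and Fech, chosen by symbol from the 27998 genes counted. All 8 were found under their symbols. Their levels were followed in the erythroid cells of a healing skull defect, along cells ordered by Slc4a1, which encodes the anion exchanger band 3 of the red cell membrane, and in the other cell classes of the same tissue. The 2 groups were wild-type C57BL/6 mice whose 2 mm parietal bone defect had been filled with a CGG hydrogel or with a CGG-Cit hydrogel, names the labels do not spell out. Tissue of the defect was taken at day 14, digested in 0.3% collagenase, passed through a 70 µm strainer and sequenced as 1 droplet library of single cells per hydrogel. No untreated bone or empty defect was analysed here, the sources used here do not say how many mice gave each library, and with 1 library per hydrogel no difference between hydrogels can be tested.

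After filters on genes, mitochondrial share and doublets, 11048 of 12527 barcodes were kept in CGG and 9994 of 10806 in CGG-Cit, with medians of 3969 and 5914 unique molecular identifiers (UMIs) per cell. The libraries shared 34 barcodes. Classes were named from marker genes that left the 8 members out, so each class name stands for cells like that type. The erythroid class held 672 CGG cells and 1298 CGG-Cit cells, with medians of 11195 and 13402 UMIs. Summed over the class, all 19 of its 19 measured markers were at 10 CPM or more in both libraries, but its clusters were named from these same markers. CPM are the UMIs of a gene per 1000000 UMIs of all genes, summed over a group of cells. All intervals are 95% intervals, exact Poisson for a level, exact conditional binomial for a ratio and exact Clopper-Pearson for a share of cells, and they cover counting error only.

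Heme is made in a chain that begins and ends in the mitochondrion. Aminolevulinate synthase joins glycine and succinyl-CoA in the first and rate-limiting step, and it has a housekeeping form, Alas1, and an X-linked erythroid form, Alas2, whose loss or gain in people causes sideroblastic anemia or protoporphyria. Alad, Uros and Urod act in the cytosol, where the porphyrin ring is built, and Cpox, Ppox and Fech finish it in the mitochondrion, where Fech inserts iron. Red cell precursors make most of the heme of the body, for hemoglobin, and lose their nucleus and later their mitochondria and RNA as they mature.

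The starts of the 2 aminolevulinate synthase genes are shown first, since those genes went opposite ways in the results, and those of Uros and Cpox beside them because they hold a related motif. The sequences are RefSeq's for GRCm38.p6, 250 bases ending just before a transcription start, written 5′ to 3′ on the strand of the gene. They were searched on both strands for AGATAA and TGATAA, letters of the kind bound by GATA factors, and for CCNCNCCC, letters of the CACCC kind bound by Klf1 and other factors. Capitals mark every match, and overlapping matches run together.
Alas2 start, chrX:150547167-150547416, plus strand: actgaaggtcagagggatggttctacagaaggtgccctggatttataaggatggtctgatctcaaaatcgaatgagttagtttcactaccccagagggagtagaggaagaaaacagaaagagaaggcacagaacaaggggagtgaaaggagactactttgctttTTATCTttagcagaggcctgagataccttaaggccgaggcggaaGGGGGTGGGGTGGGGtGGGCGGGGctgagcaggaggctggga
Alas1 start, chr9:106247731-106247980, minus strand: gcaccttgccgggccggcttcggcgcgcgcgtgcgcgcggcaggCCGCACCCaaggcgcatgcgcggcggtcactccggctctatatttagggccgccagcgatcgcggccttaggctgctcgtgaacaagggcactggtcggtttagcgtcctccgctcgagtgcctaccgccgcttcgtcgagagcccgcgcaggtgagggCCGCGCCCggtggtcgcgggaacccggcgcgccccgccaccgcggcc
Uros start inside the gene, chr7:133702501-133702750, minus strand: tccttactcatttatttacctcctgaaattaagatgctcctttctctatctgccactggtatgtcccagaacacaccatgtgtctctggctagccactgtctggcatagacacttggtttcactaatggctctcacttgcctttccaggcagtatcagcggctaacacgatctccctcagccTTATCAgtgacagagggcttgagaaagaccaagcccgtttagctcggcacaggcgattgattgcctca
Cpox start, chr16:58669958-58670207, plus strand: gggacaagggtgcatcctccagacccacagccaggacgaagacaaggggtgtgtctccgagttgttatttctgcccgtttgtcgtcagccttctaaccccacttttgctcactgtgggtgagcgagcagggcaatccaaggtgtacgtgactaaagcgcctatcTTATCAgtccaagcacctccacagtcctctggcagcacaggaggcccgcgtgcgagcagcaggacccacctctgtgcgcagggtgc

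Starts of 7 of the 8 members were searched, 10 starts in all, and no start of Fech was among them. Among these 10, AGATAA was found at the Alas2 start alone, and 9.99% of the 32851 starts of all genes hold it. There it lies on the opposite strand with its leftmost base at position -86 from the transcription start. The same Alas2 window held CCNCNCCC at positions -42, -40, -35 and -26. TGATAA, found at 7.94% of all starts, was present at the Cpox start at position -86 and at the Uros start shown at position -68, in both cases on the opposite strand. The other Uros start listed, not shown, held neither GATA form and had CCNCNCCC at position -32. Both Alad starts, not shown, held CCNCNCCC and neither GATA form. The Alas1 window shown held neither GATA form and had CCNCNCCC at positions -206 and -47, a motif present at 45.9% of all starts. The other Alas1 start listed, not shown, also held neither GATA form and had CCNCNCCC at position -228. Both Alas1 windows lie inside the bounds of the gene as annotated. Neither the Urod nor the Ppox window held any of the motifs. These are matches of letters and not measured binding sites.

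Erythroid cells had higher levels of every member than the other cells did, apart from Alas1. Set against all other named cells of the same library together, 7 of 8 members were at least 2-fold higher in CGG and 7 of 8 in CGG-Cit, where 5.79% of 7546 genes and 4.57% of 6845 genes were. The remaining member, Alas1, was at least 2-fold lower in both, as were 65.2% of genes in CGG and 44.7% in CGG-Cit. All 8 members passed the filter on low values here, 20 UMIs or more and a mean level no lower than 10 CPM, and their median log2 ratio was 3.38 in CGG and 3.97 in CGG-Cit beside medians over all genes of -1.55 and -0.88. No alternative processing that was run moved these counts, and 7 of 8 were higher on every scale tried, although the class itself was found by clustering on other erythroid genes.

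For the first step, Alas2 stood at 745.8 CPM (727.1 to 764.8) in CGG erythroid cells and 593.0 CPM (582.3 to 603.9) in CGG-Cit. In the other named cells it was at 15.5 and 15.9 CPM, so the ratios were 48.1 and 37.2. Alas1 went the other way, with 5.68 CPM (4.16 to 7.57) in CGG erythroid cells against 45.9 CPM in the other cells, and 8.64 CPM (7.39 to 10.1) against 97.4 CPM in CGG-Cit. Erythroid cells therefore had 0.124 and 0.0887 times the Alas1 level of the rest. With globin left out of the total the log2 ratios of Alas1 moved from -3.01 and -3.50 to -1.67 and -2.47, and those of Alas2 from 5.59 and 5.22 to 6.93 and 6.25. For the cytosolic steps, Alad, which joins aminolevulinate into porphobilinogen, was at 173.4 and 217.9 CPM, or 13.04 and 17.1 times the level elsewhere. Uros, which closes the ring, was at 67.7 and 74.8 CPM with ratios of 9.93 and 14.3. Urod, which trims its side chains, was at 184.9 and 207.8 CPM with ratios of 8.70 and 8.53. For the mitochondrial end, Cpox had ratios of 12.7 and 18.8, Ppox 6.91 and 5.43, and Fech 10.9 and 20.6. The ratio of each gene to the rest thus fell in the same broad range for the middle and the end of the chain, and Ppox had the smallest in both libraries.

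**Figure D1:**
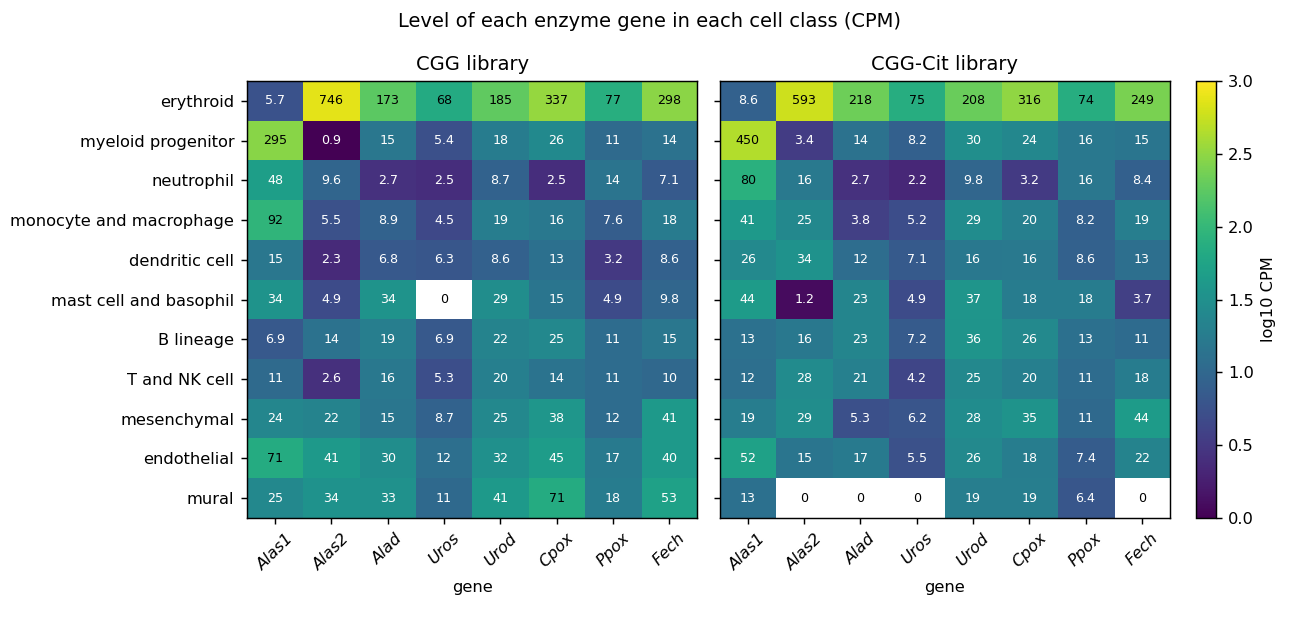
Level of each of the 8 genes (columns) in each of 11 named cell classes (rows) in the CGG and the CGG-Cit library, in CPM as printed in each cell and coloured by log10 CPM; white squares had no UMI. The erythroid row is the brightest for every gene but Alas1, which is brightest in myeloid progenitors at 295.1 and 449.7 CPM.

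Within the erythroid class, 4 clusters were ordered by their share of UMIs from the 4 adult globin genes, and each is called here by its leading gene. The Car1-led cluster (65 CGG and 267 CGG-Cit cells) had 0.178% and 1.10% globin. The Hemgn-led cluster (172 and 290 cells) had 41.8% and 37.2%, and the Tmcc2-led cluster (210 and 428 cells) 80.4% and 82.2%. The Hbb-bs-led cluster (225 and 313 cells) had 94.2% and 94.9% globin and medians of only 303 and 271 detected genes. Of the 19 measured erythroid markers, 12 in CGG and 17 in CGG-Cit were at 10 CPM or more in the Car1-led cluster. In the Hbb-bs-led cluster 10 were in each library. The Car1-led cluster also held RNA of other lineages. All 12 myeloid progenitor markers were at 10 CPM or more there in both libraries, with summed levels of 3437 and 2491 CPM against 70.5 to 289.2 CPM in the other 3 clusters, and 7 and 5 of 8 platelet markers were, with sums of 1486 and 811.2 CPM against at most 27.9 CPM. Of 8 plasma cell markers 5 were in each library, with sums of 5281 and 4105 CPM against at most 35.0 CPM elsewhere, most of it Jchain at 4749 and 3760 CPM. The cluster is therefore called by its leading gene and by no cell type, and the part of such cells in its values was not tested.

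From the Car1-led to the Hemgn-led cluster 7 members were higher together. In CGG 7 of 8 members were at least 2-fold higher in the Hemgn-led cluster, as were 10.1% of 6928 genes, and in CGG-Cit also 7 of 8, where 7.93% of 6810 genes were; these counts were the same on every scale tried. The median log2 ratio was 3.95 and 2.70 over the members and -1.10 and -0.95 over all genes. Alas2 went from 4 UMIs, or 3.19 CPM (0.868 to 8.16), to 618.4 CPM (586.7 to 651.4) in CGG and from 14.4 CPM (11.4 to 18.0) to 550.8 CPM (530.1 to 572.2) in CGG-Cit. Its ratios, 194.1 (75.6 to 713.3) and 38.1 (30.4 to 48.4), were the largest of the members in both libraries. Alas1 was lower in the Hemgn-led cluster, at 2.61 CPM (0.959 to 5.69) against 25.5 CPM (17.4 to 36.0) in CGG and 3.11 CPM (1.74 to 5.13) against 26.7 CPM (22.5 to 31.4) in CGG-Cit. The other members had ratios of 7.72 for Urod to 23.0 for Uros in CGG and of 4.69 for Urod to 10.4 for Uros in CGG-Cit. In all of them the intervals of the 2 clusters were far apart.

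After the Hemgn-led cluster the genes parted into groups. Cpox was at 922.0 CPM in the Hemgn-led, 243.5 CPM in the Tmcc2-led and 4.30 CPM in the Hbb-bs-led cluster of CGG, and at 857.6, 243.3 and 8.004 CPM in CGG-Cit. Alad took the same course, with 454.7, 139.5 and 3.01 CPM in CGG and 586.5, 161.0 and 1.33 CPM in CGG-Cit. Both were thus highest in the Hemgn-led cluster and nearly gone in the last. Uros and Ppox followed with a shallower middle step: Uros had 146.3, 90.9 and 0.859 CPM in CGG and 188.6, 92.8 and 1.33 CPM in CGG-Cit, and Ppox had 163.3, 100.4 and 2.15 CPM in CGG and 167.7, 103.6 and 3.78 CPM in CGG-Cit. Urod held its level longer, at 325.8, 281.7 and 30.5 CPM in CGG and 379.6, 326.8 and 47.8 CPM in CGG-Cit.

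Alas2 and Fech, the first and the last step, lasted into the cells that held little but globin RNA. Alas2 had 618.4, 1132 and 903.4 CPM in the Hemgn-led, Tmcc2-led and Hbb-bs-led clusters of CGG and 550.8, 1061 and 829.3 CPM in those of CGG-Cit. Fech had 394.1, 470.3 and 189.5 CPM in CGG and 358.2, 424.2 and 199.9 CPM in CGG-Cit. In the Hbb-bs-led cluster all 225 CGG cells and all 313 CGG-Cit cells had an Alas2 UMI, and 77.8% (71.8 to 83.0) and 89.8% (85.9 to 92.9) had one of Fech, but 3.11% (1.26 to 6.31) and 1.92% (0.707 to 4.13) had one of Alad. With every cell thinned to 2000 UMIs, leaving out 3 CGG cells and no CGG-Cit cell, the shares were 80.2% and 77.3% for Alas2, 29.3% and 31.9% for Fech, and no cell with Alad in either library, which allows a share of up to 1.35% and 0.958%. From the Tmcc2-led to the Hbb-bs-led cluster 6 of 8 members were at least 2-fold lower in CGG and 6 of 8 in CGG-Cit, but so were 82.7% of 1437 genes and 87.2% of 1256 genes, a share near that of the members. In both libraries 7 of 8 members passed the filter on low values in this comparison, Alas1 being the exception.

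**Figure D2:**
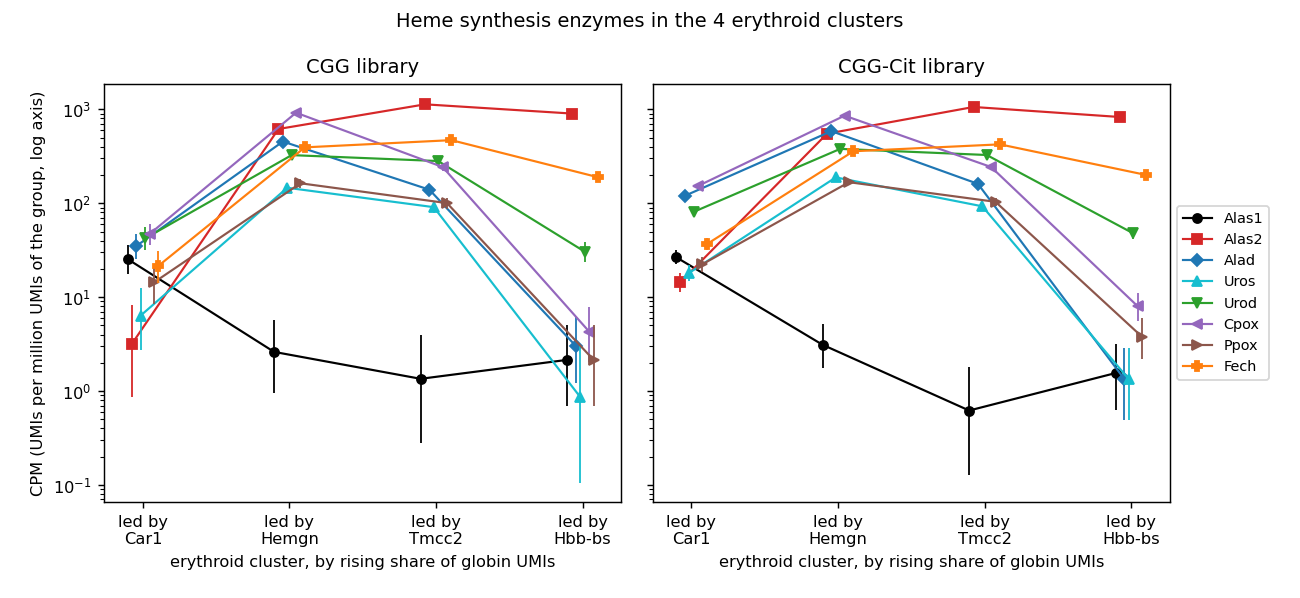
Levels of the 8 genes in the 4 erythroid clusters, ordered by rising globin share, in CPM on a log axis with 95% Poisson intervals as bars, in the CGG library (left) and the CGG-Cit library (right). Alas2 is highest in the Tmcc2-led cluster in both libraries, Cpox and Alad drop from 922.0 and 454.7 CPM to 4.30 and 3.01 CPM in CGG, and Alas1 is highest at the Car1-led end.

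Because globin RNA fills most of the total in the later clusters, the direction of the later steps depends on the scale. From the Hemgn-led to the Tmcc2-led cluster, 2 of 8 members (Alas2 and Fech) were higher by CPM in both libraries. With globin UMIs left out of the total 6 of 8 were higher in CGG and 5 of 8 in CGG-Cit, and with scaling on the median of all ratios 8 of 8 were in both, while the median of all genes moved from log2 ratios of -2.39 and -2.77 by CPM to -0.776 and -0.944 without globin. Relative to that median of all genes, all 8 members lay above it in both libraries by CPM. From the Tmcc2-led to the Hbb-bs-led cluster, Alas2 and Fech were lower by CPM, with log2 ratios of -0.33 and -1.31 in CGG and -0.36 and -1.09 in CGG-Cit, but higher with globin left out, at 1.44 and 0.46 in CGG and 1.44 and 0.71 in CGG-Cit. Alad, Uros, Urod, Cpox and Ppox stayed lower on all 3 scales in both libraries. Counted simply as UMIs per cell, Alas2 had 8.26, 12.0 and 9.34 in the 3 clusters of CGG and 9.16, 12.0 and 11.9 in those of CGG-Cit, whereas Cpox had 12.3, 2.58 and 0.0444 and 14.3, 2.75 and 0.115.

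Ordering the erythroid cells by their own Slc4a1 UMIs gave an order unlike that of the clusters, whose median Slc4a1 UMIs from the Car1-led to the Hbb-bs-led were 0, 24, 16 and 1 in CGG and 0, 19, 13 and 2 in CGG-Cit. Cells with 3 or more Slc4a1 UMIs (449 CGG and 820 CGG-Cit cells) had at least 2-fold more of 6 of 8 members in CGG than cells with 0 to 2 (223 and 478 cells), where 12.5% of 5027 genes did, and of 7 of 8 in CGG-Cit, where 7.02% of 5539 genes did. The ratios in CGG ran from 3.93 (3.47 to 4.46) for Fech to 12.1 (7.99 to 19.3) for Uros, and in CGG-Cit from 3.13 (2.99 to 3.29) for Alas2 to 5.88 (4.99 to 6.97) for Uros. Alas2 in CGG, at 1.97 (1.85 to 2.10), lay just under 2. Alas1 was lower in cells with 3 or more, with 8 UMIs, or 1.51 CPM (0.653 to 2.98), against 38 UMIs, or 13.5 CPM (9.57 to 18.6), in CGG and 2.29 CPM (1.496 to 3.36) against 17.4 CPM (14.7 to 20.5) in CGG-Cit. It was the member at least 2-fold lower in each, as were 50.8% of genes in CGG and 66.2% in CGG-Cit, and it was the member that did not pass the filter on low values. The median log2 ratio over the 8 members was 2.91 and 1.91, beside -1.03 and -1.51 over all genes. On every scale tried 7 of 8 were above 0 and Alas1 was below.

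The group with 0 to 2 Slc4a1 UMIs joined both ends of the cluster order, which bears on what these ratios compare. It drew 65 cells from the Car1-led and 150 from the Hbb-bs-led cluster in CGG, and 263 and 178 in CGG-Cit. Split by globin, the cells under 50% globin (70 and 286) had 8.67 and 6.54 CPM of Alas2, and those with 50% or more (153 and 192) had 892.0 and 839.1 CPM, next to 899.2 and 830.0 CPM in the cells with 3 or more Slc4a1 UMIs. The Slc4a1-rich cells thus had 103.7 (59.3 to 200.9) and 126.9 (92.0 to 180.3) times the Alas2 level of the globin-poor cells, but 1.01 (0.947 to 1.07) and 0.989 (0.944 to 1.04) times that of the globin-rich ones. That last comparison depends on the scale, since globin took 94.6% and 95.3% of the UMIs of the globin-rich part and 67.9% and 67.3% of the others: with globin left out of the total the log2 ratios of Alas2 were -2.56 and -2.83. Fech was at 34.7 and 41.4 CPM in the globin-poor part, 168.3 and 196.5 CPM in the globin-rich part, and 402.6 and 364.8 CPM in the Slc4a1-rich cells. Cpox differed from both, at 102.6 and 183.2 CPM, 5.61 and 10.2 CPM, and 487.1 and 450.2 CPM. Alas1 by CPM was higher in the globin-poor part, with 23.8 and 24.4 CPM against 3.51 and 1.96 CPM in the globin-rich part, each of the latter resting on 5 UMIs. With globin left out, Alas1 turned to 23.9 and 24.5 CPM in the globin-poor part against 64.7 and 42.2 CPM in the globin-rich part. Cpox was then at 102.8 and 183.9 CPM against 103.5 and 219.3 CPM, and Fech was at 3106 and 4217 CPM in the globin-rich part against 1253 and 1117 CPM in the Slc4a1-rich cells, so that its order turned too. This split was added after the data were seen.

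In finer groups of 0, 1-2, 3-9, 10-29 and 30 or more Slc4a1 UMIs, Cpox stood at 64.2, 26.9, 125.5, 506.7 and 827.2 CPM in CGG and 153.4, 75.6, 138.7, 518.4 and 880.6 CPM in CGG-Cit. Alad, Uros, Urod and Ppox likewise had their lowest level among cells with 1-2 UMIs and their highest among those with 30 or more, in both libraries. Alas2 instead lay between 827.2 and 941.5 CPM from 1-2 UMIs upward in CGG, and between 599.7 and 849.0 CPM in CGG-Cit, after 279.0 and 116.8 CPM in cells with no Slc4a1 UMI. Fech was higher at every step, from 70.8 to 535.3 CPM in CGG and from 60.9 to 488.7 CPM in CGG-Cit. These courses depend on the scale. With globin left out of the total Alas2 was highest at 1-2 UMIs in CGG and at 3-9 in CGG-Cit and lower at each later step, with 7222, 4720, 2831 and 1873 CPM from 1-2 UMIs upward in CGG and 1726, 4338, 2319 and 1692 CPM in CGG-Cit. On that scale Fech too was lower at each step after the same groups, from 1458 to 1212 CPM in CGG and from 1430 to 997.0 CPM in CGG-Cit. The dip at 1-2 UMIs was then gone for Cpox, Urod and Ppox in both libraries and for Alad and Uros in CGG-Cit, and Cpox and Alad were still highest at 30 or more in both. Of the 79 CGG and 171 CGG-Cit cells with 1-2 UMIs, 71 and 118 were of the Hbb-bs-led cluster. Alas1 had 17.6 and 21.8 CPM at 0 Slc4a1 UMIs and no UMI in the 116 CGG cells with 3-9, which allows up to 2.41 CPM.

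**Figure D3:**
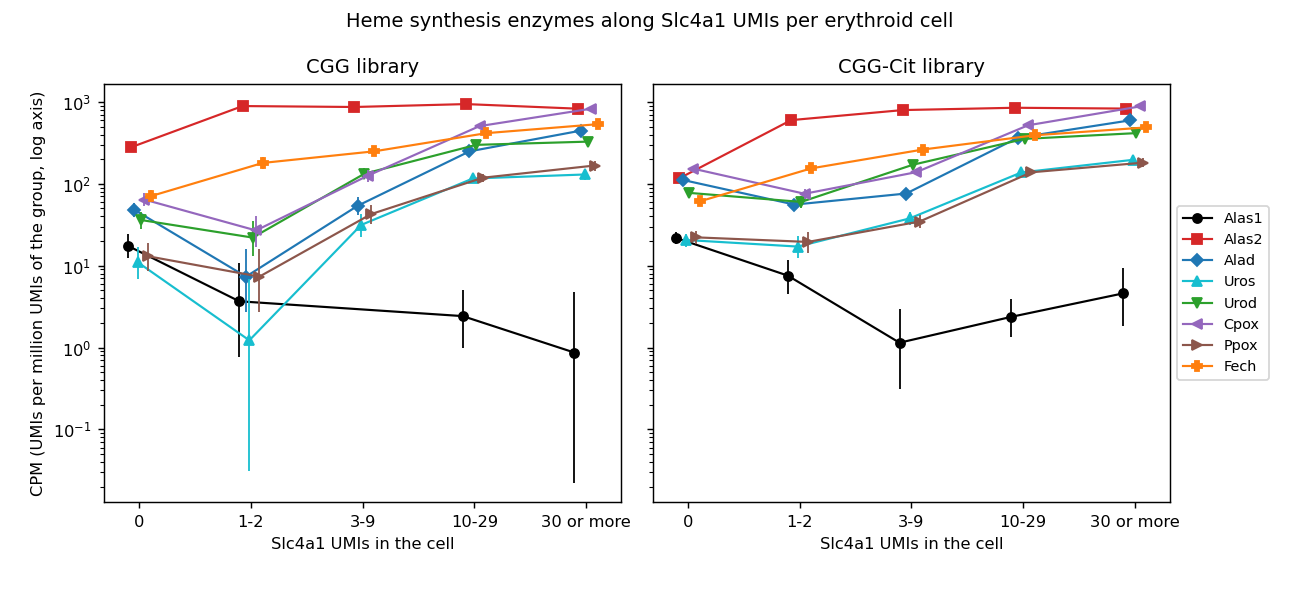
Levels of the 8 genes in erythroid cells grouped by Slc4a1 UMIs (0, 1-2, 3-9, 10-29, 30 or more) in CPM on a log axis with 95% Poisson intervals as bars, CGG on the left and CGG-Cit on the right; the group of CGG cells without an Alas1 UMI has no point. With globin in the total, as plotted, the middle enzymes dip at 1-2 UMIs and climb to the right, while Alas2 stays between 827.2 and 941.5 CPM from 1-2 UMIs in CGG; with globin left out it goes from 7222 to 1873 CPM there.

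Changes of processing moved the counts by Slc4a1. With at least 500 genes per cell, 371 CGG and 707 CGG-Cit erythroid cells were left, and 3 of 8 members were at least 2-fold higher in CGG, where 5.97% of genes were. With the cells divided at the median globin share in place of Slc4a1, 0 of 8 were higher and 6 of 8 lower in CGG, and 1 of 8 higher and 5 of 8 lower in CGG-Cit. Under that split 93.5% of genes in CGG and 93.6% in CGG-Cit were lower and 0.638% and 1.26% higher, so most genes were lower with the members. By Slc4a1 but with the Car1-led cluster left out, 65.3% of genes in CGG and 45.4% in CGG-Cit were at least 2-fold higher, against 12.5% and 7.02% with it.

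Other genes of heme and iron handling were counted from lists chosen by function, again by cells with 3 or more Slc4a1 UMIs over cells with 0 to 2. Of all genes that passed the filter on low values, 12.5% in CGG and 7.02% in CGG-Cit were at least 2-fold higher here. Lower were 50.8% and 66.2%. Of 12 genes for mitochondrial and porphyrin transport, 8 in CGG and 7 in CGG-Cit were at least 2-fold higher and 1 was lower in each, counting every listed gene, with median log2 ratios of 2.36 and 1.44. Abcb10, a mitochondrial transporter that supports heme synthesis, had log2 ratios of 3.28 and 2.76, and Slc25a37 (mitoferrin), which brings iron into the mitochondrion, 2.60 and 3.01. Tfrc, the transferrin receptor, had 3.20 and 2.45, and the 12 genes of iron uptake, storage and sensing were otherwise mixed, with 4 higher and 3 lower in CGG and 2 higher and 6 lower in CGG-Cit (medians 0.27 and -0.55). Iron-sulfur clusters are carried by Fech and let Aco1 sense iron. Of 10 genes for such clusters, 4 were higher and 2 lower in CGG and 2 higher and 3 lower in CGG-Cit. Glrx5, whose loss in people gives a sideroblastic anemia, had log2 ratios of 1.97 and 1.21.

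Genes that feed or control aminolevulinate synthase did not follow Alas2. Of 9 listed, none was at least 2-fold higher and 7 were lower in CGG, and none was higher and 9 were lower in CGG-Cit, with medians of -2.31 and -2.48 beside -1.03 and -1.51 over all genes. Of the 7 that passed the filter on low values, 6 were lower in CGG and 7 in CGG-Cit. Most of all genes that passed were lower as well, 50.8% and 66.2%, while 12.5% and 7.02% were higher. Suclg2, a subunit of the enzyme succinyl-CoA synthetase, had log2 ratios of -3.69 and -3.78, and Clpx, an unfoldase that acts on aminolevulinate synthase, -0.48 and -1.27. Among genes for heme export, breakdown and sensing, Eif2ak1, the kinase that senses heme and holds back globin synthesis, had 3.03 and 2.33, Blvrb, a biliverdin reductase, 2.74 and 1.501, and Hmox2, a heme oxygenase, -2.60 and -2.75. For reference, 13 and 14 of 14 genes of the red cell membrane were at least 2-fold higher, a list that holds Slc4a1 itself, and 7 and 7 of 8 early progenitor genes were lower. Klf1, an erythroid transcription factor, had log2 ratios of 3.001 and 1.08, and Gata2, a factor of earlier progenitors, -8.92 and -6.83.

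The genes most like the members in pattern differed along the chain. Across 16 sums of class and library with at least 100 cells each, which share the libraries and any free RNA in them, log2(CPM + 1) of Alas2 had among its highest Pearson r those with Hbb-bt (0.992), Hba-a1 (0.992), Hba-a2 (0.991) and Hbb-bs (0.986), of 4446 genes compared. The pairs Hba-a1 and Hba-a2, and Hbb-bs and Hbb-bt, are near-identical copies whose reads may be split between them. Genes most like Urod instead included Glrx5 (0.956), Cpox (0.948), Mtfr1 (0.945) and 1300017J02Rik (0.942), and its r with Alas2 was 0.841. Over the 10 sums of Slc4a1 group and library, Uros was most like Rhd (0.994), Tmem86b (0.993) and Cldn13 (0.993), and genes most like Fech included Hbq1b (0.994) and Isca1 (0.991). Over the same 10 sums r was 0.969 between Uros and Cpox, 0.853 between Fech and Alas2, 0.296 between Uros and Alas2 and -0.812 between Alas1 and Alas2. Alas1 was most like Pgam1 (0.988), Ppp1r11 (0.985) and Idh2 (0.980) there. These values describe few points and carry no test.

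Outside the erythroid class Alas1 had its own order. Myeloid progenitors had the highest level in both libraries, 295.1 CPM (263.9 to 329.0) in 37 CGG cells and 449.7 CPM (435.5 to 464.1) in 246 CGG-Cit cells. In CGG they were followed by monocytes and macrophages at 92.3 CPM (87.4 to 97.4), endothelial cells at 71.0 CPM (62.3 to 80.6) and neutrophils at 48.0 CPM (43.4 to 52.9). In CGG-Cit neutrophils came next at 79.6 CPM (75.9 to 83.4), then 48 endothelial cells at 51.8 CPM (34.4 to 74.8), 67 mast cells and basophils at 44.0 CPM (30.8 to 61.0) and monocytes and macrophages at 41.3 CPM (35.4 to 47.8), the last 3 with overlapping intervals. B lineage cells were at 6.94 and 13.1 CPM and T and NK cells at 10.8 and 12.4 CPM, and in CGG the intervals of B lineage and erythroid cells overlapped. The order against erythroid cells depends on the scale. With globin left out, log2 ratios of Alas1 in erythroid over B lineage cells turned from -0.29 and -0.60 to 1.06 and 0.43. Over T and NK cells they turned from -0.93 and -0.52 to 0.42 and 0.50. Almost all myeloid progenitors had an Alas1 UMI, 94.6% (81.8 to 99.3) and 99.6% (97.8 to 99.99), at medians of 29802 and 34272 UMIs per cell, against 4.76% and 7.94% of erythroid cells.

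Free RNA from broken erythroid cells can reach other droplets, and how far it did so here was not tested. The UMIs of each gene elsewhere were therefore set against globin UMIs at the erythroid ratio. Globin RNA made up 0.480% of the UMIs of T and NK cells in CGG and 2.28% in CGG-Cit. Alas2 lay near the ratio: in B lineage cells, T and NK cells, neutrophils, monocytes and macrophages, and dendritic cells it was counted at 0.450 to 1.56 times the UMIs that ratio gives in CGG and at 0.955 to 1.11 times in CGG-Cit. The interval lay off 1 in 3 of the 5 CGG classes, at 1.18 to 2.01 in B lineage cells, 1.05 to 1.65 in monocytes and macrophages and 0.206 to 0.853 in T and NK cells, on 57, 80 and 9 UMIs. Outside these classes, Alas2 was at 1.28 times (1.18 to 1.38) in CGG mesenchymal cells, on 655 UMIs. In CGG endothelial cells it was at 1.31 times (1.10 to 1.55), on 139 UMIs. In CGG-Cit the intervals of both held 1. Alas2 UMIs in those classes are not read as expression here, and the part of doublets was not tested. Alas1 was counted at 103.9 to 2894 times the ratio in CGG and at 32.5 to 323.3 times in CGG-Cit. Ppox was above it in neutrophils, at 17.4 times (14.4 to 20.8) in CGG and 7.37 times (6.61 to 8.19) in CGG-Cit, with 14.1 and 15.6 CPM, although B4galt3 overlaps Ppox on the opposite strand. Cpox in neutrophils, at 0.692 times (0.429 to 1.06) and 0.356 times (0.278 to 0.449), and Alad, at 1.47 times (0.933 to 2.21) and 0.428 times (0.326 to 0.552), were not above it. In neutrophils Ppox was thus above the globin ratio of the whole erythroid class, and Cpox, the enzyme just before it, was not. That ratio is a mean over erythroid clusters in which Cpox and globin differed widely. It therefore cannot show whether neutrophils held Cpox RNA of their own, which was not tested. In B lineage cells the 6 members from Alad to Fech were all above the ratio, at 4.36 to 12.7 times in CGG and at 1.74 to 6.66 times in CGG-Cit. Because the ratio is a mean over unlike erythroid clusters, these values cannot show whether B lineage cells held such RNA of their own. That was not tested.

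**Figure D4:**
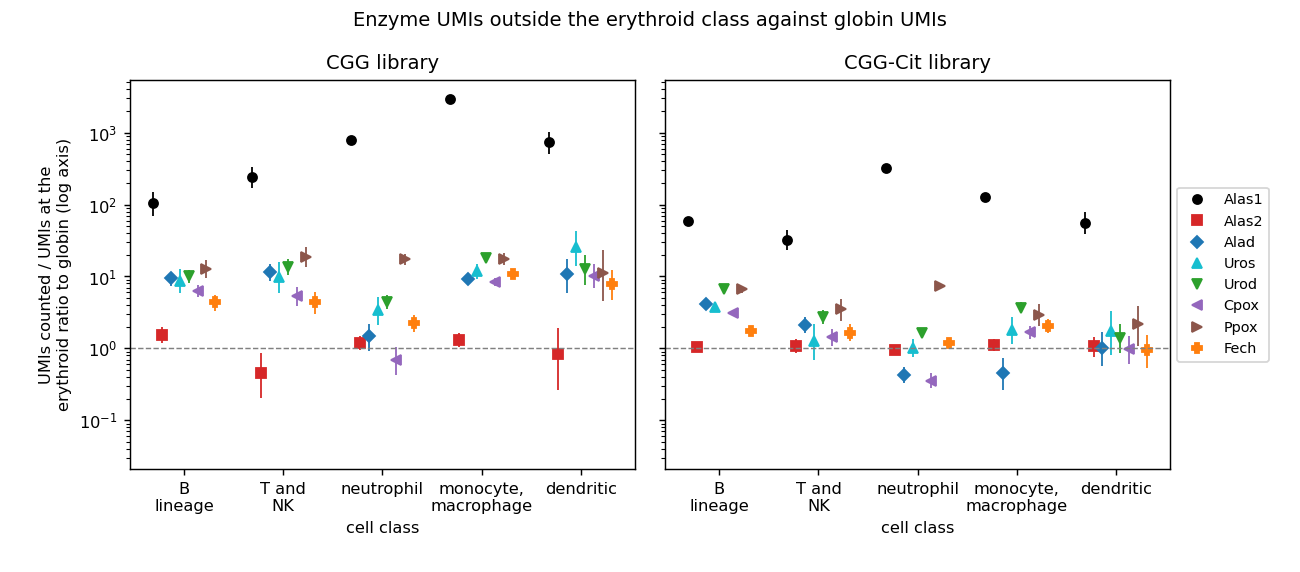
UMIs counted for each gene in 5 classes divided by the UMIs that the erythroid ratio of that gene to globin would give, on a log axis with 95% intervals as bars and a dashed line at 1, CGG on the left and CGG-Cit on the right. Alas2 lies between 0.450 and 1.56 in these 5 classes, Alas1 far above, and in neutrophils Ppox stands apart from Cpox and Alad.

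Between the hydrogels the enzyme genes of all erythroid cells together lay close to each other. With CGG-Cit over CGG, 1 of 8 members was at least 1.5-fold higher, where 25.4% of 5012 genes were, and 0 of 8 were at least 1.5-fold lower, where 1.88% were. The 1 was Alas1, at 8.64 CPM (169 UMIs) against 5.68 CPM (46 UMIs), a ratio of 1.52 (1.09 to 2.16), and it alone did not pass the filter on low values. Alas2 was lower in CGG-Cit at 0.795 times (0.771 to 0.820), as was Fech at 0.836 times (0.796 to 0.878), and Alad was higher at 1.26 times (1.18 to 1.34). Uros, Urod, Cpox and Ppox lay between 0.938 and 1.12 times. The median log2 ratio was 0.05 over the members and 0.34 over all genes. The share of all genes at least 1.5-fold higher was not stable, at 4.15% at resolution 0.5 and 65.8% with each library clustered alone. With globin left out of the total, Alas2 reached a log2 ratio of -0.64 and Alas1 one of 0.29, so that 0 of 8 were higher and 1 of 8 lower. On that scale 7.85% of 7327 genes were at least 1.5-fold higher and 8.6% lower. Uros and Urod then turned to -0.17 and -0.14, and the median over all genes to 0.03.

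The make-up of the erythroid class differed between the libraries. Car1-led cells were 9.67% (7.55 to 12.2) of CGG erythroid cells and 20.6% (18.4 to 22.9) of those of CGG-Cit, and Hbb-bs-led cells 33.5% (29.9 to 37.2) and 24.1% (21.8 to 26.5). Within the Hemgn-led cluster no member reached 1.5-fold in either direction, where 10.1% of genes were higher and 4.26% lower. Alad and Uros were at 1.29 times (1.201 to 1.39) and 1.29 times (1.14 to 1.47), and Alas2 at 0.891 times (0.835 to 0.951). Within the Tmcc2-led cluster Alas1 alone passed 1.5-fold, downward and on 3 UMIs in each library, where 3.64% of genes were higher and 14.7% lower, and Alas2 was at 0.937 times (0.894 to 0.984). Alas2 was likewise 0.918 times (0.87 to 0.969) as high in the Hbb-bs-led cluster, so that in each of these 3 clusters it was nearer to 1 than over all erythroid cells, and with globin left out of the total its log2 ratio was 0.04 in both of the latter. In the Hbb-bs-led cluster 4 of 8 were higher past 1.5-fold and 1 lower, where 5.04% of 556 genes were higher and 20.5% lower. Only 3 of 8 members passed the filter on low values there, and of the 5 past 1.5-fold Urod at 1.57 times (1.19 to 2.08) was the one with an interval off 1.

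In the Car1-led cluster the members differed between the libraries. There 7 of 8 members were at least 1.5-fold higher in CGG-Cit, where 9.45% of 7696 genes were, and none lower, where 10.9% were. Among the higher were Alad at 120.1 CPM (111.0 to 129.7) against 35.1 CPM (25.5 to 47.1), Cpox at 152.9 CPM (142.6 to 163.7) against 47.0 CPM (35.8 to 60.6) and Uros at 18.2 CPM (14.7 to 22.1) against 6.37 CPM (2.75 to 12.6). The ratios of these 3 were 3.43 (2.52 to 4.76), 3.25 (2.50 to 4.31) and 2.85 (1.39 to 6.79). Alas2 had a ratio of 4.54 (1.70 to 17.1) on 78 and 4 UMIs and did not pass the filter on low values. The interval of Ppox, 1.56 (0.949 to 2.73), held 1, and Alas1 was at 1.05 times (0.710 to 1.59). The median log2 ratio of the members was 1.23, beside -0.009 over all genes of that cluster, and all 8 were above 0 on every scale tried. In the same cells the CGG-Cit library had more globin (1.10% against 0.178% of UMIs), more Car1 (1232 against 414.2 CPM), a higher sum of non-globin erythroid markers (3339 against 1136 CPM), a higher sum of neutrophil markers (5290 against 1016 CPM) and lower sums of platelet (811.2 against 1486 CPM) and myeloid progenitor markers (2491 against 3437 CPM). The part of these in the result was not tested, and library and hydrogel cannot be told apart.

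**Figure D5:**
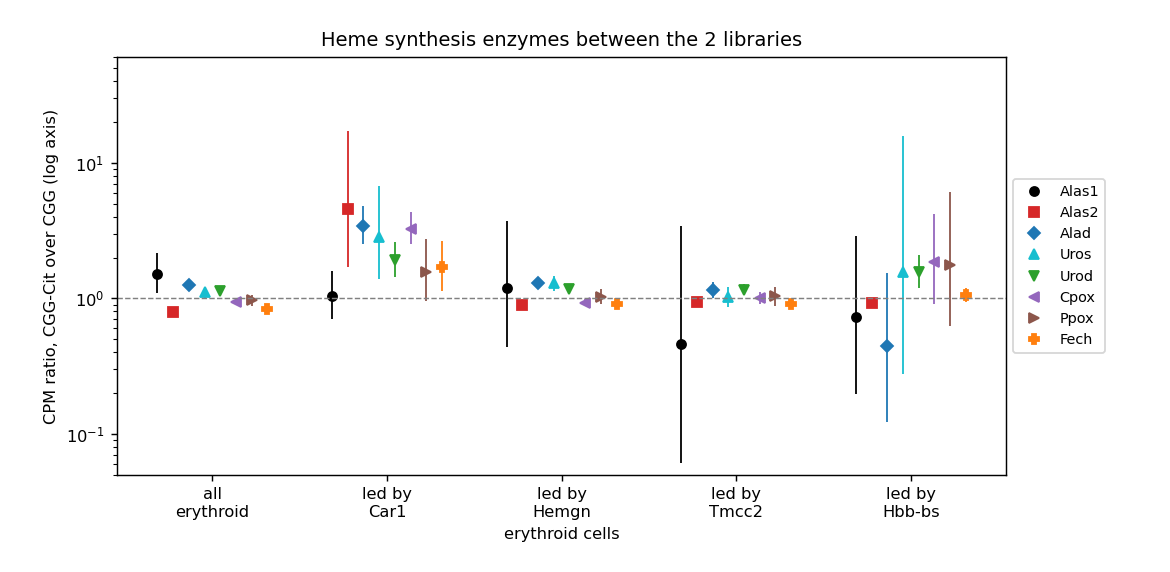
Ratio of CPM in CGG-Cit over CGG for the 8 genes, in all erythroid cells and in each of the 4 erythroid clusters, on a log axis with 95% intervals as bars and a dashed line at 1. Ratios in the Hemgn-led and Tmcc2-led clusters lie close to 1 except for Alas1, whose intervals are wide, and those in the Car1-led cluster reach 4.54 for Alas2, on few UMIs, and 3.43 for Alad.

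In other classes, where Alas2 is not read as expression, both Alas2 and globin differed between the hydrogels. The Alas2 ratio was 10.7 (5.41 to 24.3) in T and NK cells, where globin went from 0.480% of UMIs in CGG to 2.28% in CGG-Cit. It was 4.48 (3.32 to 6.07) in monocytes and macrophages, with 0.343% and 1.95% globin, and 1.18 (0.889 to 1.59) in B lineage cells, with 0.718% and 1.33%. Alas1 differed in direction between classes: it was 0.447 times (0.380 to 0.524) as high in monocytes and macrophages of CGG-Cit and 1.66 times (1.49 to 1.85) as high in neutrophils. Whether those effects differ between the classes was not tested. Among genes on the opposite strand, 4930500F10Rik overlaps Alas1, Apex2 overlaps Alas2, Bccip overlaps Uros, Gpr15 overlaps Cpox and B4galt3 overlaps Ppox. The sources used here do not state whether the counting used strand, so reads from such a pair cannot be told apart where they overlap.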

How the data were processed

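Droplet 3' libraries were made with the Chromium Single Cell 3' kit, version 2 or 3 per the labels' protocols, which do not say which. The deposited values are raw UMI counts per gene and barcode, not normalized. The submitters' processing notes name Cell Ranger 3.0 and build mm10, and the file headers Cell Ranger 4.0.0. Strand settings are not stated in those sources. The members and gene lists were chosen with earlier results of these data known.

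Barcodes were kept with at least 200 genes and at most 20% mitochondrial UMIs. In CGG 56 and 192 were removed and in CGG-Cit 236 and 39. Scrublet then removed 537 CGG-Cit cells. In CGG its own threshold marked 1 cell, so the 1231 highest scores, 10.0% of its cells, were removed. Both libraries were clustered together in scanpy 1.11.5 (Python 3.11.15) with leidenalg 0.10.2, on 2000 variable genes without the members and the genes of the pathway, transport and iron lists, 30 components, 15 neighbours, resolution 1.0 and seed 7. The 34 barcodes found in both libraries were kept. A cluster took the name of the list leading over its 8 best markers, if at least 3 were in 10% of its cells at 2-fold or more. It stayed unnamed, as did 1092 CGG and 478 CGG-Cit cells, where another list had more markers among its 10 top genes or where none of its own was there and its cells were shallower than 0.333 times their library's median.

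UMIs were summed by library and group of cells. With 1 library per hydrogel no test was made, and a gene was counted as higher or lower past 2-fold, or 1.5-fold between hydrogels, by its ratio alone. Genes counted for the background had a mean of at least 10 CPM and 20 UMIs. For log2 ratios alone 0.5 UMIs were added where a sum was 0. Shares of cells were also taken after thinning to 2000 UMIs, and limits for a count of 0 use 3 counts. All members were named, and per list the 3 highest and 3 lowest log2 ratios, mean of both libraries, could be. Likeness used classes with at least 100 cells and genes of at least 10 CPM in erythroid cells. Some genes that these rules select are not reported here. The sums and ratios were checked on simulated counts. Motifs were searched in RefSeq starts of GRCm38.p6, the assembly of mm10.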

Additional observations from a re-analysis of the deposited data

How the results depend on the processing

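The counts of members higher or lower in erythroid cells than in all other named cells were the same under every alternative run. The counts between Slc4a1 groups were not. For CGG, the number higher, 6, was 3 with at least 500 genes per cell and 0 with the cells split at their median globin share, and the number lower, 1, was 0 with 500 genes, 0 with thinned cells and 6 by globin share. For CGG-Cit, the number higher, 7, was 1 by globin share and 5 with the Slc4a1-poor group limited to 50% globin or more, and the number lower, 1, was 0 at resolution 0.5, 0 without the cluster of median Slc4a1 0, 0 with the Slc4a1-poor group limited to 50% globin or more, and 5 by globin share. The share of all genes at least 2-fold higher moved too, from 12.5% in CGG and 7.02% in CGG-Cit. It was 92.5% and 96.0% with that limit on globin. Without the cluster of median Slc4a1 0 it was 65.3% and 45.4%, and at resolution 0.5 it was 64.5% and 45.6%. How far the members stood out from all genes thus depends on the cells taken. Under the split by globin share, log2 ratios turned to -4.18 (Alad), -2.31 (Uros), -1.27 (Urod), -3.84 (Cpox), -2.44 (Ppox) and -0.29 (Fech) in CGG and to -2.64 (Alad), -1.70 (Uros), -0.45 (Urod), -2.50 (Cpox) and -1.18 (Ppox) in CGG-Cit. Alad in CGG was at -0.034 with 500 genes, and with the limit on globin Alas1 was at 0.22 and Alas2 at -0.016 in CGG-Cit. The cause was not tested, beyond the make-up of the groups given above.

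Between hydrogels, the number higher, 1, was 0 at resolution 0.5, with globin left out, with median-of-ratios scaling, without the cluster of median Slc4a1 0, in the Hemgn-led and the Tmcc2-led cluster alone and with equal weights of the 4 clusters. It was 5 in cells with 0 to 2 Slc4a1 UMIs, 7 in the Car1-led and 4 in the Hbb-bs-led cluster alone. The number lower, 0, was 1 with each library clustered alone, with globin left out, in cells with 0 to 2 Slc4a1 UMIs, and in the Tmcc2-led or Hbb-bs-led cluster alone, and 2 with median-of-ratios scaling. The share of all genes at least 1.5-fold higher moved from 25.4% as well. It was 4.35% with 500 genes, 4.15% at resolution 0.5, 44.2% at 10% mitochondrial and 65.8% with each library alone. With median-of-ratios scaling 5.11% were higher and 8.42% lower. No such share is given here for cells with 0 to 2 Slc4a1 UMIs or for equal weights. Alas1 reversed to -0.26 at resolution 0.5, -0.21 without the cluster of median Slc4a1 0, -1.12 in the Tmcc2-led and -0.47 in the Hbb-bs-led cluster. The settings by single cluster, equal weights and globin limit were chosen after seeing the data. No paired analysis was possible because each hydrogel has 1 library.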

Other observations

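Barcodes left out for having fewer than 200 detected genes held Alas2 and Fech with little of the other members, as the Hbb-bs-led cluster did. There were 56 in CGG and 236 in CGG-Cit, with median globin shares of 89.0% and 96.7%, and 40 and 217 of them held at least 50% globin. Summed over these barcodes, Alas2 was at 874.6 and 884.3 CPM and Fech at 95.8 and 143.9 CPM. Alad had 0 and 2 UMIs, Uros none in either, Urod 0 and 7, Cpox 1 and 0, and Ppox 2 and 3, of 156637 and 1591130 UMIs in all.

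Myeloid progenitors held the enzymes after the first step at levels unlike those of erythroid cells. Beside 295.1 and 449.7 CPM of Alas1 they had 0.908 and 3.40 CPM of Alas2, which is 0.910 and 1.07 times the globin ratio, and 10.9 and 15.8 CPM of Ppox, which is 106.2 and 39.8 times it. Fech was at 13.6 and 14.5 CPM in the same cells, which is 34.1 and 10.9 times the ratio. These multiples rest on little globin, 0.0816% and 0.277% of UMIs, and in CGG on 12 UMIs of Ppox and 15 of Fech. By CPM Ppox was not particular to these cells. It was at 11.5 and 12.7 CPM in B lineage cells and 7.62 and 8.2 CPM in monocytes and macrophages.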
